A study of Schizosaccharomyces pombe with 12 samples.

Results

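Phosphatidylcholine, a main lipid of yeast membranes, can be made by adding methyl groups to phosphatidylethanolamine, and each methyl group comes from S-adenosylmethionine. That cofactor is made from methionine, and after a methyl transfer it is left as S-adenosylhomocysteine, which is split to homocysteine and remethylated to methionine. Serine feeds both arms, since it supplies carbon units for remethylation and is the head group of phosphatidylserine, the precursor of phosphatidylethanolamine. Genes of this route were read across all 4 groups of an mRNA sequencing study of the fission yeast Schizosaccharomyces pombe. Of 8 genes listed by name or systematic ID, 7 were found among the 6936 genes of the tables: met26, sam1, SPBC8D2.18c, ser3, pps1, cho2 and cho1. The eighth, ino1, which in Saccharomyces cerevisiae encodes inositol-3-phosphate synthase, matched no name or ID, and no value is given for it. Fission yeast is known to need inositol from its medium. All 7 genes passed the low-count filter in both fits used here.

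The genes were chosen by names listed with their differences between these groups known, and which of the measured values were used was not recorded. The 7 genes' values are therefore given as a description. Whether each passed an adjusted p threshold is given further on without its p-value, and no contrast of the 7 counts as a test.

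The study compared wild-type cells with cells lacking ntu1 or ntu2. Cells were grown exponentially in YES, a rich medium, at 30 °C, and poly(A)-selected stranded libraries were made from 300 ng of total RNA. There were 3 libraries in each group, and no label says whether the 3 came from separate cultures, so the spread between them may be technical. The ntu_WT cells were h+ with leu1-32, ura4-D18 and ade6-M210. The ntu1_KO cells were h+ with leu1-32, ura4-D18, ade6-M216 and ntu1D::kanMX, and the ntu2_KO cells carried ntu2D::kanMX on the same background. The wt_WT cells were h- with leu1-32, ura4-D18 and ade6-704, although the labels give them the same strain number as ntu_WT. All groups thus share leu1-32 and ura4-D18, and no wild type carries the ade6-M216 allele of the knockouts, so deletion and ade6 allele cannot be told apart.

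Library totals ran from 3177147 to 7556338 estimated counts in the 9 h+ libraries and from 11308010 to 11782294 in wt_WT. Reads of ribosomal RNA genes made up 0.371% to 0.699% in wt_WT, 2.40% to 2.67% in ntu_WT, 0.682% to 6.67% in ntu1_KO and 1.44% to 3.66% in ntu2_KO. The library with 6.67%, ntu1_KO replicate 1, stood apart from its group, and it was the highest of the 3 ntu1_KO libraries for all 7 genes. The deleted genes were low where the labels say they are: in counts per 1e+06 (CPM), ntu1 was at 10.4 ± 1.65 (SD, n = 3) in ntu1_KO against 93.1 ± 3.76 in ntu_WT, and ntu2 was at 45.8 ± 7.44 in ntu2_KO against 219.02 ± 14.6. The 3 P-type mating markers summed to 18.5 to 20.4 CPM in ntu_WT, 11.9 to 12.8 CPM in ntu1_KO, 7.99 to 17.2 CPM in ntu2_KO and 4.01 to 4.31 CPM in wt_WT, where 2 of the 3 were at 0. The 5 M-type markers matched by symbol summed to 62.5 to 73.8 CPM in wt_WT and to at most 3.91 CPM elsewhere. Nearly all of this wt_WT sum was mat1-Mc and mfm2, whose means there were 40.4 and 25.2 CPM. With mat2-Pc, which was at 0 only in wt_WT, these genes followed the mating-type labels. Not every marker did. The mean of mfm3 was lowest in wt_WT, at 0.425 CPM. For map2, the whole P-type sum of wt_WT, the mean there was 4.16 CPM. That was below ntu_WT, at 4.99, but above ntu1_KO, at 2.90, and ntu2_KO, at 4.02.

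All 7 genes were lowest in ntu_WT, and for each of them the 3 ntu_WT libraries lay below every library of the other 3 groups. The knockouts were 12.8% to 61.9% above ntu_WT, and no gene reached 2-fold in any comparison. The other wild type, wt_WT, was also above ntu_WT for all 7 genes, by 14.0% to 36.3%. In these bulk libraries, a smaller share of cells with a transcript and less of it per cell cannot be told apart.

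**Figure D1:**
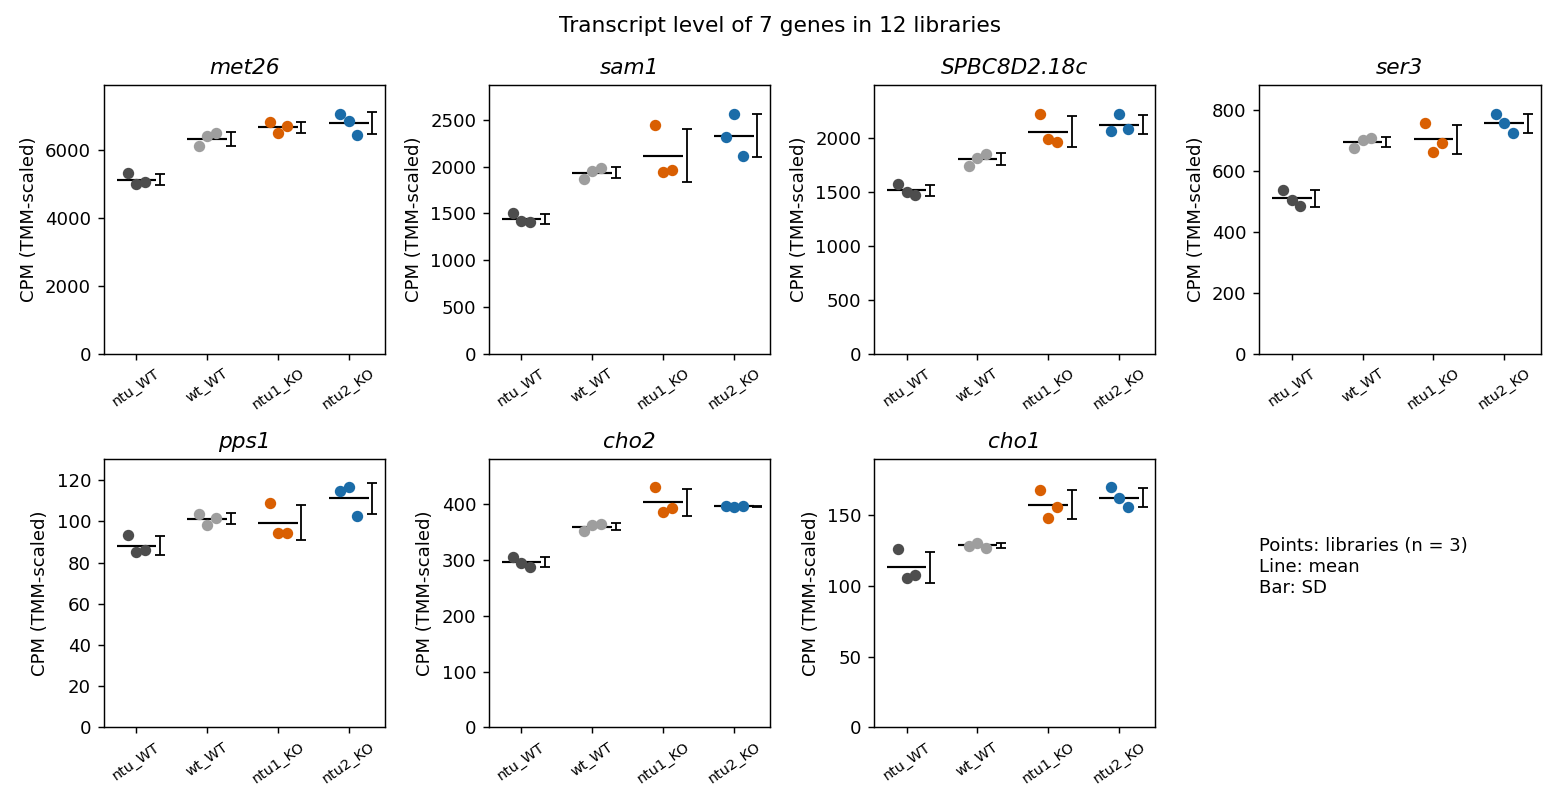
Level of each of the 7 genes in every library, in counts per 1e+06 (CPM) on linear axes that start at 0; points are libraries, lines group means and bars SD (n = 3 per group). For every gene the 3 ntu_WT points lie below all 9 others, and the knockouts overlap each other.

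Levels between genes were compared per length, in transcripts per 1e+06 transcripts (TPM). The most abundant was met26, whose mean over the 12 libraries was 2301 TPM, with a range of 1770 to 2680 TPM. It ranked 102 among all 6936 genes. The genes for S-adenosylmethionine synthesis and S-adenosylhomocysteine hydrolysis, sam1 and SPBC8D2.18c, lay close together at 1362 and 1335 TPM. Serine synthesis and phospholipid methylation followed, with ser3 at 376 TPM, cho1 at 348 TPM and cho2 at 154 TPM. The least abundant was pps1, at 103 TPM and rank 1399. Together the 3 methionine-cycle genes met26, sam1 and SPBC8D2.18c took 0.387% ± 0.020 (SD, n = 3) of all TPM in ntu_WT. That share was 0.507% ± 0.013 in wt_WT, 0.538% ± 0.036 in ntu1_KO and 0.568% ± 0.043 in ntu2_KO. The highest ntu_WT library, at 0.408%, lay below the lowest library of any other group, at 0.496%. Between groups the TPM scale itself shifts. On log2(TPM + 1) the median log2 fold change of all genes against ntu_WT was 0.09 in wt_WT, 0.02 in ntu1_KO and 0.03 in ntu2_KO. How much of the difference in share is one of scale was not tested.

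**Figure D2:**
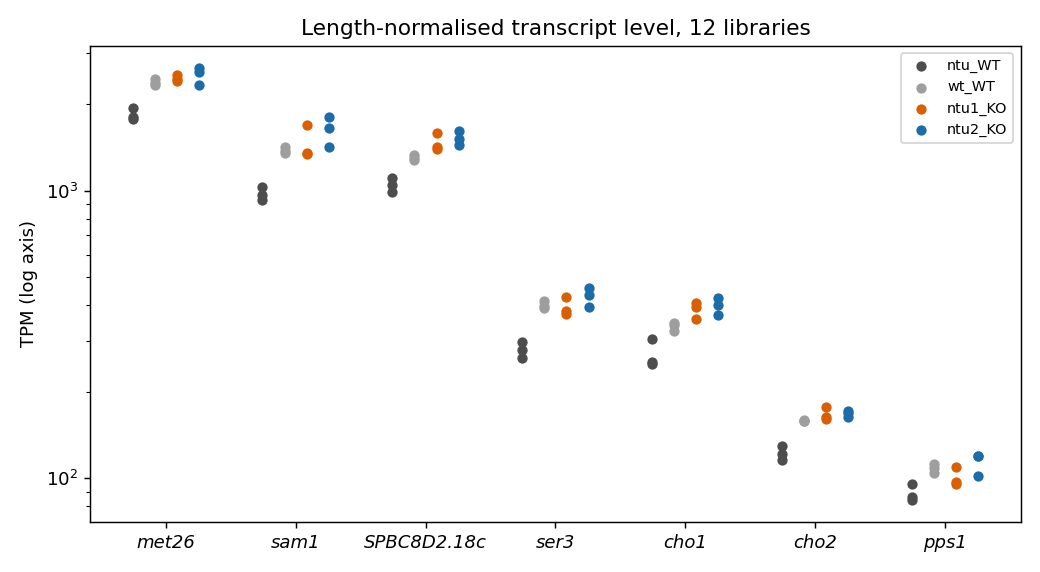
TPM of the 7 genes in the 12 libraries, on a log axis, with colours for the 4 groups. Mean levels over the 12 libraries run from 103 TPM for pps1 to 2301 TPM for met26.

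The methionine cycle begins here with met26 (SPAC9.09, chromosome I), annotated as the homocysteine methyltransferase that makes methionine. It had 5325, 5012 and 5058 CPM in the 3 ntu_WT libraries and 6107, 6403 and 6491 CPM in wt_WT. In the knockouts it had 6826, 6508 and 6700 CPM without ntu1 and 7071, 6863 and 6440 CPM without ntu2. All 9 libraries outside ntu_WT were above the ntu_WT libraries. The ntu1_KO libraries lay above all wt_WT libraries, while ntu2_KO and wt_WT overlapped. Against ntu_WT, the log2 fold change of met26 was 0.38 ± 0.06 (SE) in ntu1_KO, 0.40 ± 0.06 in ntu2_KO and 0.30 ± 0.05 in wt_WT. Of the 7 genes it had the smallest fold above ntu_WT in ntu1_KO after pps1.

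The next step, sam1 (SPBC14F5.05c, chromosome II), encodes S-adenosylmethionine synthetase. Its libraries had 1502, 1417 and 1406 CPM in ntu_WT and 1870, 1957 and 1985 CPM in wt_WT. They had 2441, 1945 and 1961 CPM in ntu1_KO and 2320, 2566 and 2111 CPM in ntu2_KO. Every ntu2_KO library was above every wt_WT library, and ntu1_KO overlapped both. The log2 fold change against ntu_WT was 0.55 ± 0.09 in ntu1_KO, 0.69 ± 0.09 in ntu2_KO and 0.43 ± 0.08 in wt_WT, and the value in ntu2_KO, 1.62-fold, was the largest of the 7 genes in any comparison. Without ntu1_KO replicate 1, the ntu1_KO value of sam1 was 0.44. The spread of sam1 in the knockouts was also the widest of the 7, with an SD of 13.3% of the mean in ntu1_KO and 9.75% in ntu2_KO.

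The third cycle gene, SPBC8D2.18c (chromosome II), is annotated as adenosylhomocysteinase, which splits the product left by each methyl transfer. It had 1568, 1496 and 1467 CPM in ntu_WT and 1737, 1811 and 1845 CPM in wt_WT. It had 2217, 1983 and 1957 CPM in ntu1_KO and 2056, 2220 and 2080 CPM in ntu2_KO. The order was ntu_WT, wt_WT, then both knockouts, and only the knockouts overlapped. Log2 fold changes against ntu_WT were 0.44 ± 0.06 in ntu1_KO, 0.49 ± 0.06 in ntu2_KO and 0.25 ± 0.05 in wt_WT. Per length, sam1 stood at 0.931 ± 0.007 (SD, n = 3) times SPBC8D2.18c in ntu_WT, 0.992 ± 0.061 in ntu1_KO, 1.07 ± 0.072 in ntu2_KO and 1.06 ± 0.002 in wt_WT. The ntu_WT ratios, at 0.924 to 0.936, lay below those of every other library, so sam1 was the further above ntu_WT of the pair. The ratio of met26 to sam1 was 1.89 ± 0.017 in ntu_WT, 1.70 ± 0.18 in ntu1_KO, 1.56 ± 0.12 in ntu2_KO and 1.72 ± 0.001 in wt_WT. Its lowest ntu_WT value, 1.87, was above the highest value of any other group, 1.82 in ntu1_KO.

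Serine synthesis was represented by ser3 (SPCC364.07, chromosome III), the D-3-phosphoglycerate dehydrogenase that opens the route from glycolysis to serine. It had 539, 506 and 487 CPM in ntu_WT and 677, 701 and 709 CPM in wt_WT. It had 758, 662 and 694 CPM in ntu1_KO and 789, 758 and 724 CPM in ntu2_KO. The ntu2_KO libraries were above all wt_WT libraries, and ntu1_KO lay on both sides of wt_WT. The log2 fold change against ntu_WT was 0.47 ± 0.06 in ntu1_KO, 0.57 ± 0.06 in ntu2_KO and 0.45 ± 0.06 in wt_WT. The last value was the largest of the 7 genes in wt_WT.

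Phospholipid synthesis starts here with pps1 (SPCC1442.12, chromosome III), which joins serine to CDP-diacylglycerol to make phosphatidylserine. It had 93.3, 85.1 and 86.0 CPM in ntu_WT and 104, 98.4 and 102 CPM in wt_WT. It had 109, 94.5 and 94.5 CPM in ntu1_KO and 115, 116 and 102 CPM in ntu2_KO. The gap between the highest ntu_WT library and the lowest ntu1_KO library was the narrowest of the 7 genes, and the other 3 groups overlapped each other. Its log2 fold change was 0.17 ± 0.08 in ntu1_KO, 0.33 ± 0.08 in ntu2_KO and 0.20 ± 0.07 in wt_WT. In both knockouts this was the smallest value of the 7.

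Methylation of phosphatidylethanolamine is carried out by cho2 (SPBC26H8.03, chromosome II), the phosphatidylethanolamine N-methyltransferase that adds the first methyl group. Its libraries had 306, 295 and 288 CPM in ntu_WT and 353, 362 and 365 CPM in wt_WT. They had 430, 386 and 393 CPM in ntu1_KO and 396, 395 and 396 CPM in ntu2_KO. The 3 ntu2_KO libraries differed by less than 1% of their mean in SD (0.208%), and both knockouts lay above all wt_WT libraries. The log2 fold change against ntu_WT was 0.44 ± 0.06 in ntu1_KO, 0.42 ± 0.06 in ntu2_KO and 0.28 ± 0.05 in wt_WT. It was the only 1 of the 7 genes with its highest mean CPM in ntu1_KO, and that order rested on ntu1_KO replicate 1. The other ntu1_KO libraries, at 386 and 393 CPM, lay below all ntu2_KO libraries. In TPM the mean was 167.4 in ntu1_KO and 167.7 in ntu2_KO.

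The later methylations are assigned to cho1 (SPBC337.16, chromosome II), annotated as a putative phosphatidyl-N-methylethanolamine N-methyltransferase. It had 126, 106 and 108 CPM in ntu_WT and 129, 131 and 127 CPM in wt_WT. It had 168, 148 and 156 CPM in ntu1_KO and 169.6, 162 and 156 CPM in ntu2_KO. The knockouts stood clear of both wild types, and ntu_WT replicate 1 came within 1 CPM of the lowest wt_WT library. The log2 fold change against ntu_WT was 0.48 ± 0.08 in ntu1_KO, 0.52 ± 0.08 in ntu2_KO and 0.19 ± 0.07 in wt_WT. Per length, cho2 stood at 0.455 ± 0.029 (SD, n = 3) times cho1 in ntu_WT, 0.433 ± 0.024 in ntu1_KO, 0.422 ± 0.021 in ntu2_KO and 0.471 ± 0.017 in wt_WT. The range in ntu_WT overlapped that of every other group, while the highest values in ntu1_KO and ntu2_KO, 0.455 and 0.444, lay just below the lowest in wt_WT, 0.456. The ratio of cho1 to pps1 was 3.04 ± 0.14 in ntu_WT, 3.86 ± 0.25 in ntu1_KO, 3.51 ± 0.14 in ntu2_KO and 3.11 ± 0.17 in wt_WT. Its lowest values in ntu1_KO, 3.71, and in ntu2_KO, 3.34, were both above the highest wild-type value, 3.31.

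Beside this description of the levels, edgeR's quasi-likelihood test, fitted over all genes with Benjamini-Hochberg adjustment, called 6 of the 7 higher in ntu1_KO than in ntu_WT at an adjusted p under 0.05, all but pps1. Of all 5808 genes tested, 0.465% were called higher in that comparison and 0.74% in either direction. For all 7 the lowest ntu1_KO library was above the highest ntu_WT library, as it was for 6.82% of all genes tested. The median log2 fold change of the 7 was 0.44, and that of all genes 0.00. The call of sam1 was lost without ntu_WT replicate 2 or 3, where its log2 fold change was 0.54 and 0.53. Limma fits of the TPM values called 5 of the 7, without sam1, and 4 with no low-value filter, without sam1 and cho1. In ntu2_KO against the same ntu_WT libraries, 6 of the 7 were called higher, again all but pps1, and 0.448% of all genes tested were (0.758% in either direction). The CPM of all 7 lay above ntu_WT without overlap, as those of 6.75% of all genes tested did, while 6.51% lay below without overlap. The median of the 7 was 0.49, and that of all genes 0.00. All 6 calls were made with each library left out in turn, and pps1 was called as well without ntu2_KO replicate 3, with all 12 libraries in the fit and with a replicate block. Since both comparisons use the ntu_WT libraries, their values are set side by side and no likeness between them is scored. The genes entered the list with such values known, so these counts add no evidence. With a minimum of 2-fold none of the 7 is called in any comparison of groups, beside 0.224% of all genes tested in ntu1_KO and 0.155% in ntu2_KO against ntu_WT, 0.103% between the knockouts, 1.03% in wt_WT against ntu_WT, and 1% in ntu1_KO and 0.424% in ntu2_KO against wt_WT.

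**Figure D3:**
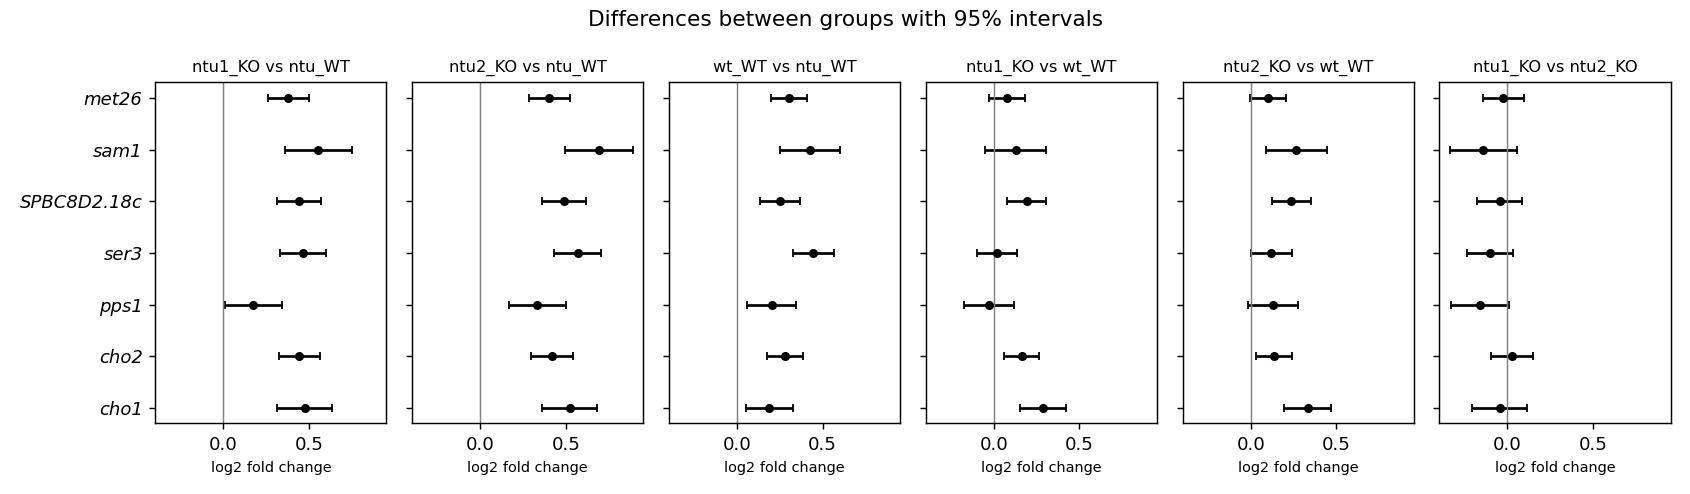
Log2 fold change of each of the 7 genes in the 6 comparisons of groups, from edgeR; points are estimates and bars 95% intervals. Values against ntu_WT lie between 0.17 and 0.69, and those between the knockouts between -0.16 and 0.03 with intervals that include 0.

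None of the 7 was called between ntu1_KO and ntu2_KO, where 0.103% of all genes tested were called by edgeR and 387 of them had an unadjusted p under 0.05. The CPM of all 7 overlapped between the knockouts, while 5.29% of all genes tested lay higher in ntu1_KO and 5.04% lower without overlap. The log2 fold change, ntu1_KO minus ntu2_KO, had its largest size for pps1, at -0.16 with a 95% interval of -0.33 to 0.01. For sam1 it was -0.14, with an interval of -0.34 to 0.05, and for ser3 it was -0.10, with an interval of -0.24 to 0.03. The intervals of cho1, from -0.21 to 0.11, cho2, from -0.10 to 0.15, SPBC8D2.18c, from -0.18 to 0.08, and met26, from -0.15 to 0.10, were centred nearer to 0. The intervals of all 7 include 0, so none had an unadjusted p under 0.05, but differences within these bounds are not excluded and the knockouts are not shown to be alike. DESeq2, run beside edgeR, called 18 genes in this comparison, none of them among the 7.

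In wt_WT against ntu_WT, edgeR called 5 of the 7 higher, all but cho1 and pps1, where 4.05% of all 5899 genes tested were called higher and 8.24% in either direction. The CPM of all 7 lay higher in wt_WT without overlap, as in 18% of all genes tested, while 17.3% lay lower without overlap. The median of the 7 was 0.28, against 0.00 over all genes. The call of SPBC8D2.18c was lost without wt_WT replicate 3, at 0.23, and cho1 was called without ntu_WT replicate 1, at 0.27. The limma fits of TPM called 6 of the 7, cho1 among them, and a fit of these groups alone called all 7. These wild types differ in mating type, ade6 allele, depth and rRNA share, which cannot be told apart. The scale also bears on this pair. On log2(TPM + 1) the median of all genes moved to 0.09 and that of the 7 to 0.37, and the share of calls that were higher went from 49.2% to 81.5%. On that scale cho1 was at 0.33 rather than 0.19.

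Against wt_WT the knockouts stood less far apart. In ntu1_KO edgeR called cho1, at 0.29 ± 0.07, and SPBC8D2.18c, at 0.19 ± 0.05, while 2.71% of all genes tested were called higher and 5.87% in either direction. Of the 7 genes, cho1, cho2, SPBC8D2.18c and met26 had CPM that lay above wt_WT without overlap, as 16% of all genes tested did. The remaining values were 0.16 ± 0.05 for cho2, 0.13 ± 0.08 for sam1, 0.08 ± 0.05 for met26, 0.02 ± 0.06 for ser3 and -0.03 ± 0.07 for pps1. With 1 library left out in turn, cho1 was called only without ntu1_KO replicate 2, and SPBC8D2.18c in none of the 6 fits, with log2 fold changes of 0.24 to 0.33 and 0.13 to 0.22. In ntu2_KO the same 2 genes were called, cho1 at 0.33 ± 0.07 and SPBC8D2.18c at 0.24 ± 0.05, beside 2.24% of all genes tested (3.78% in either direction). CPM lay above wt_WT without overlap for cho1, cho2, sam1, SPBC8D2.18c and ser3, as in 10.1% of all genes tested. The others were 0.27 ± 0.08 for sam1, 0.14 ± 0.05 for cho2, 0.13 ± 0.07 for pps1, 0.12 ± 0.06 for ser3 and 0.10 ± 0.05 for met26. In all 6 fits with a library left out cho1 was called, and SPBC8D2.18c was called only without ntu2_KO replicate 1 or 3, with log2 fold changes of 0.31 to 0.36 and 0.20 to 0.26. The limma fits of TPM called none of the 7 in either comparison, with cho1 at 0.20 in ntu1_KO and 0.24 in ntu2_KO and cho2 at 0.08 in both. On log2(TPM + 1) the median of the 7 went from 0.13 to 0.07 in ntu1_KO and from 0.14 to 0.10 in ntu2_KO, while that of all genes moved to -0.07 and -0.06. In ntu1_KO sam1 was then at 0.07, met26 at 0.04, ser3 at -0.03 and pps1 at -0.11, so ser3 lay on the other side of 0. On that scale the share of calls that were higher went from 46.2% to 23.4% in ntu1_KO and from 59.2% to 33.9% in ntu2_KO. Both comparisons share the wt_WT libraries, and the knockouts' ade6-M216 allele differs from that of wt_WT too.

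Around these 7 genes, 57 others of the same and neighbouring pathways were counted in 5 lists, of which all passed the filter. These lists too were drawn up with earlier results of these data known, so their counts describe these libraries and are no independent support. Their adjusted p-values are over all genes tested. Against ntu_WT, 2 of the 57 were called in ntu1_KO and 3 of the 57 in ntu2_KO, where 0.74% and 0.758% of all genes tested were. All of these calls lay among the 8 genes of serine, glycine and carbon-unit supply. In ntu1_KO, 2 of these 8 rose and none fell, and their median log2 fold change was 0.16. The T subunit gene of the glycine cleavage system, gcv1, rose to 216 ± 5.69 CPM from 168 ± 6.19 CPM (SD, n = 3), that is by 0.37 ± 0.06 on the log2 scale (SE; edgeR adjusted p = 0.00213). The serine hydroxymethyltransferase gene shm1, whose enzyme passes a carbon unit from serine to folate, rose to 2110 ± 109 CPM from 1721 ± 88.7 CPM, at 0.29 ± 0.06 (edgeR adjusted p = 0.0314). The shm1 call was lost without ntu_WT replicate 2 or 3 and without any 1 of the ntu1_KO libraries, with edgeR adjusted p of 0.0732 to 0.324, whereas gcv1 was called in all 6 such fits. In ntu2_KO, 3 of the 8 rose and none fell, with a median of 0.15. They were gcv2, encoding the P subunit, at 0.32 ± 0.07 (edgeR adjusted p = 0.0498), shm1 at 0.31 ± 0.06 (edgeR adjusted p = 0.0280) and gcv1 at 0.30 ± 0.06 (edgeR adjusted p = 0.0175).

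Each of those 3 calls depended on which libraries were in the fit. The gcv1 call in ntu2_KO was lost without ntu_WT replicate 2 or 3 or ntu2_KO replicate 2 (edgeR adjusted p 0.0559 to 0.139). The shm1 call was lost without those libraries or ntu2_KO replicate 1 (0.0699 to 0.234), and the gcv2 call without any library but ntu2_KO replicate 3 (0.0921 to 0.320). The limma fits of TPM called none of the 3 in ntu2_KO, and gcv1 but not shm1 in ntu1_KO. The H subunit gene gcv3 did not pass, at 0.24 ± 0.06 in ntu1_KO (edgeR adjusted p = 0.0649) and 0.23 ± 0.06 in ntu2_KO (edgeR adjusted p = 0.0793). The later steps of serine synthesis that follow ser3 were near 0, with ser1 at 0.06 ± 0.06 in both knockouts and ser2 at 0.00 ± 0.06 and 0.04 ± 0.06. The second serine hydroxymethyltransferase gene, shm2, was at 0.03 ± 0.05 and -0.02 ± 0.05.

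**Figure D4:**
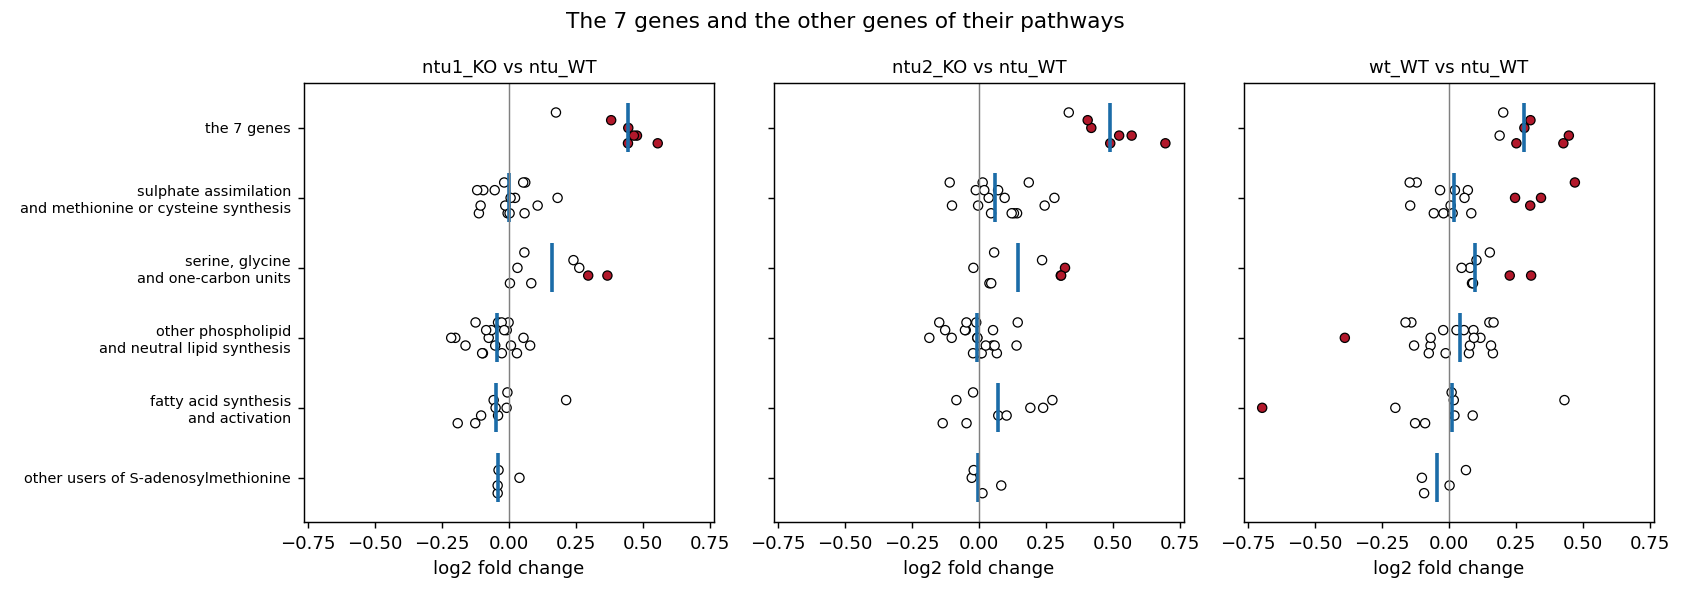
Log2 fold changes of the 7 genes (first row) and the 57 other pathway genes by list, in ntu1_KO, ntu2_KO and wt_WT against ntu_WT. Filled red points passed an edgeR adjusted p under 0.05, open points did not, and blue lines are medians of each row. In each knockout, 6 of the 7 genes, all but pps1, are red. The other red points there are the 2 and 3 genes of the list on serine, glycine and carbon units.

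None of the other 49 genes was called in either knockout against ntu_WT. Of all genes tested, only 0.74% in ntu1_KO and 0.758% in ntu2_KO were called, so no call among 49 says little about these pathways. They comprise 16 genes of sulphate assimilation and methionine or cysteine synthesis, 20 of other phospholipid and neutral lipid synthesis, 9 of fatty acid synthesis and 4 of other S-adenosylmethionine use. Their list medians ran from -0.05 to 0.00 in ntu1_KO and from -0.01 to 0.07 in ntu2_KO. The phosphatidylserine decarboxylase genes psd1, psd2 and psd3, which link pps1 to cho2, had log2 fold changes of -0.09 ± 0.07, -0.03 ± 0.09 and -0.10 ± 0.12 in ntu1_KO. In ntu2_KO the same genes had -0.05 ± 0.07, -0.05 ± 0.09 and -0.02 ± 0.12. In the alternative route, which joins ready-made choline or ethanolamine to diacylglycerol, eki1, pcy1, ect1 and ept1 lay between -0.03 and 0.03 in ntu1_KO and between -0.05 and 0.07 in ntu2_KO. The values of cho1 and cho2 were 0.48 and 0.44 in ntu1_KO, and 0.52 and 0.42 in ntu2_KO. These 2 genes were chosen with such differences known, so their contrast with the other routes is no test. No pathway gene was called between ntu1_KO and ntu2_KO.

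The comparison of the wild types called other pathway genes. In wt_WT, 6 of the 57 rose and 2 fell, where 4.05% of all genes tested were called higher and 4.19% lower. From sulphate assimilation and methionine synthesis came sir1, a sulphite reductase gene, at 0.47 ± 0.07 (edgeR adjusted p = 0.000248), cbl1 (SPCC11E10.01) at 0.34 ± 0.06 (edgeR adjusted p = 0.00193) and met6 at 0.30 ± 0.06 (edgeR adjusted p = 0.0041). The methylenetetrahydrofolate reductase gene met9 was at 0.25 ± 0.07 (edgeR adjusted p = 0.0365), a call lost without ntu_WT replicate 2 or 3 or any wt_WT library (0.0883 to 0.205). From the serine and glycine list came gcv1, at 0.31 ± 0.05 (edgeR adjusted p = 0.000528), and shm1, at 0.23 ± 0.05 (edgeR adjusted p = 0.0126). The shm1 call was lost without ntu_WT replicate 2 or 3 or wt_WT replicate 2 or 3 (0.0675 to 0.0850), and shm1 is outside the rule of 5 genes per direction, so it was named after its value was seen. The genes that fell were elo2, for fatty acid elongation, at -0.70 ± 0.07 (edgeR adjusted p = 7.13e-07), and itr2, for inositol uptake, at -0.39 ± 0.05 (edgeR adjusted p = 7.48e-05).

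Against wt_WT, 2 pathway genes rose and 2 fell in ntu1_KO, and 3 rose and 2 fell in ntu2_KO. Of all genes tested, 5.87% and 3.78% were called in either direction in these comparisons. Among the pathway genes sir1 was at -0.42 ± 0.07 in ntu1_KO (edgeR adjusted p = 0.00114) and -0.29 ± 0.07 in ntu2_KO (edgeR adjusted p = 0.0264). In the same comparisons cbl1 was at -0.32 ± 0.06 (edgeR adjusted p = 0.00539) and -0.31 ± 0.07 (edgeR adjusted p = 0.00972), and elo2 at 0.69 ± 0.07 (edgeR adjusted p = 2.16e-06) and 0.89 ± 0.07 (edgeR adjusted p = 4.17e-08). The smaller calls were itr2, at 0.19 ± 0.05 (edgeR adjusted p = 0.0438) and 0.20 ± 0.05 (edgeR adjusted p = 0.0380), and gcv2, at 0.24 ± 0.06 in ntu2_KO (edgeR adjusted p = 0.0369). The itr2 call in ntu1_KO was lost on leaving out any wt_WT library or replicate 2 or 3 of ntu1_KO, with edgeR adjusted p of 0.127 to 0.206, and that in ntu2_KO on leaving out any wt_WT library or replicate 2 of ntu2_KO (0.106 to 0.140). The gcv2 call was lost without any wt_WT library or ntu2_KO replicate 1 or 2 (0.0822 to 0.149). In ntu2_KO, sir1 was lost without any wt_WT library or ntu2_KO replicate 3 (0.0511 to 0.116), and cbl1 without wt_WT replicate 1 or 2 or ntu2_KO replicate 2 (0.0527 to 0.0659). Against ntu_WT, sir1 was at 0.05 ± 0.08 and cbl1 at 0.02 ± 0.07 in ntu1_KO, and in ntu2_KO they were at 0.19 ± 0.08 and 0.04 ± 0.07. Neither was called in either knockout.

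Across the 12 libraries the 7 genes followed each other closely. Pearson's r of log2 CPM over the 21 pairs ran from 0.779 to 0.979, with a median of 0.932. The 6 pairs with pps1 were the loosest group, at 0.779 to 0.920, and the 15 others lay at 0.870 to 0.979. Deviations from the group means also went together, with r from 0.515 to 0.910 and a median of 0.746. By that measure the pairs with pps1 were no looser, at 0.667 to 0.877, with the same median of 0.746 as the others. These points share libraries, depth and scaling and fall into 4 groups, so r is a description. Within ntu_WT, replicate 1 was the highest library for all 7 genes, as replicate 1 was within ntu1_KO.

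By the same measure, the 3 most alike genes among all tested were listed for each of the 7. Most of the places went to other members: met26 and ser3 had each other in first place, at 0.98, and so did cho2 and SPBC8D2.18c, at 0.97. The 7 were chosen with their differences between these groups known, so high r between members adds no evidence. Outside the 7, shm1 was named for 4 of them, at 0.97 for met26, sam1 and ser3 and 0.95 for cho2. For cho1 the list was SPBC8D2.18c at 0.95, pvg3 at 0.93 and cho2 at 0.93. For pps1 it was cdc18, which licenses DNA replication origins, at 0.94, sam1 at 0.92 and sre2 at 0.92.

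Every one of the 7 genes overlaps 1 to 3 other annotated genes, mostly opposite-strand non-coding RNAs. A protein-coding gene lies on the opposite strand of cho2 (iml1), SPBC8D2.18c (gmh4) and pps1 (sqs2), and SPNCRNA.742 overlaps met26 on its own strand. The libraries were stranded, but no source used here says whether strand was used in counting. How much of these genes' counts comes from overlapping transcripts was not tested.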

How the data were processed

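Genes and pathway lists were chosen with earlier results of these data known. Per the submitters' processing notes, Salmon 1.9.0 and assembly ASM294v2 were used, without their roles. The authors deposited estimated counts per gene, of which 91.2% of the non-zero values are not whole, and TPM values that sum to 1e+06 in each library. No source used here says whether counts were scaled by length. Columns were matched to samples by title. Estimated counts were rounded to whole numbers, moving library totals by at most 0.0027%. CPM use TMM-scaled library sizes.

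The test was edgeR 4.0.16 in R 4.3.3 (quasi-likelihood, robust, filterByExpr with a minimum count of 10, Benjamini-Hochberg over all genes), in 1 fit of the 9 h+ libraries (5808 genes) and, where wt_WT is compared, 1 fit of all 12 (5899 genes). P-values measure only the spread between these libraries. A gene was called at an adjusted p under 0.05 with no fold minimum. Within groups, libraries differed beyond counting noise (chi-square per degree of freedom 3.15 to 69.4). Likeness is Pearson's r of log2 CPM with a prior count of 2.

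Genes named by rule are the 7 members, the deleted genes, the mating-type markers, up to 5 called pathway genes per direction and comparison, and the 3 genes most alike to each member. The pathway genes gcv3, ser1, ser2, shm2, psd1, psd2, psd3, eki1, pcy1, ect1 and ept1 were named outside this rule, as was shm1 between the wild types. From the lists, spo7 and phs1 were left out because their annotated products contradict the list, and spe3 matched no gene. Names and overlaps come from the annotation of ASM294v3, another assembly, so no coordinates or sequences are printed, and the planned promoter motif search is not analysed here. Alternatives were DESeq2 1.42.0, other scalings, filters and thresholds, limma 3.58.1 on log2 TPM with pseudocounts of 1 and 0.1, other sets of libraries in the fit, leaving out each library, and a replicate block. Removal of rRNA genes before scaling was added after the data were seen.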

Additional observations from a re-analysis of the deposited data

How the results depend on the processing

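Of 819 recomputed log2 fold changes of the 7 genes, 783 moved by less than the replicate SD and 36 by more, the latter all on the TPM scale. No value that edgeR had called changed sign. Among values near 0 that were not called, the sign did change for cho2 (-0.02 to 0.06) and met26 (-0.06 to 0.01) between the knockouts and for ser3 (-0.04 to 0.06) and pps1 (-0.11 to 0.01) in ntu1_KO against wt_WT. In the order ntu1_KO and ntu2_KO against ntu_WT, wt_WT against ntu_WT, and ntu1_KO and ntu2_KO against wt_WT, edgeR called 43, 44, 486, 346 and 223 genes, and between the knockouts 6. With a 2-fold minimum the counts were 13, 9, 61, 59 and 25, and none of the 7 genes and none of the 57 pathway genes (0 each) was left. At an adjusted p under 0.01 they were 26, 20, 207, 126 and 93, with 0 of the 7 in ntu1_KO and 1 in ntu2_KO against wt_WT, and 1, 0 and 2 pathway genes in ntu1_KO and ntu2_KO against ntu_WT and ntu2_KO against wt_WT. The limma fits on TPM called 0 of the 7 in either knockout against wt_WT, 1 pathway gene in ntu1_KO and 0 in ntu2_KO against ntu_WT, and 2 in ntu2_KO against wt_WT. They called 24 genes in ntu1_KO against ntu_WT with no filter, 27, 29 and 25 in ntu2_KO against ntu_WT (pseudocount 1, 0.1, and 1 with no filter), 228 and 224 in ntu1_KO against wt_WT (0.1, no filter) and 124, 122 and 128 in ntu2_KO against wt_WT.

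The DESeq2 test called 82 genes in ntu2_KO against ntu_WT and 18 between the knockouts, and DESeq2 size factors left 1 of the 7 in ntu1_KO against wt_WT. Fits of the compared groups alone called 70 genes in ntu1_KO against ntu_WT, 1036 genes, 7 of the 7 and 15 pathway genes in wt_WT against ntu_WT, 777 genes and 12 pathway genes in ntu1_KO against wt_WT, and 3 pathway genes in ntu2_KO against wt_WT. All 12 libraries in the fit gave 69 calls and 7 of the 7 in ntu2_KO against ntu_WT. Replicate numbers did not pair the samples (r from -0.162 to 0.0978 over 18 pairs), and the replicate block called 80 genes and 7 of the 7 in ntu2_KO against ntu_WT, 10 between the knockouts and 1 of the 7 in ntu1_KO against wt_WT.

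With each library left out in turn, ntu1_KO against ntu_WT had 24 to 38 calls, 5 to 6 of the 7 and 1 to 2 pathway genes. In ntu2_KO against ntu_WT these were 20 to 195 (195 without ntu2_KO replicate 3), 6 to 7 and 0 to 8. Between the knockouts they were 5 to 81 (81 without ntu2_KO replicate 3), 0 and 0 to 1. In wt_WT against ntu_WT they were 227 to 433, 4 to 6 and 6 to 9. Against wt_WT they were 147 to 312, 0 to 1 and 3 to 5 in ntu1_KO and 97 to 355, 1 to 3 and 1 to 8 in ntu2_KO. The cause of these moves was not tested. Removing rRNA genes before scaling kept the number of the 7 called in each comparison at its main value. With 3 libraries a group and totals down to 3177147 counts, small differences stay below what the test can call.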
